A study of Mus musculus with 10 samples.

Results

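The let-7 family and its relative miR-98 were followed one microRNA at a time in CD43- splenic B-cells of the mouse. The members were fixed by name: the 5p arm of let-7a, b, c, d, e, f, g and i and of miR-98, which are 9 of the 1302 mature microRNA rows, of the 2015 microRNA rows and of the 6968 small RNA rows in the deposited count table. All 9 were counted in every library, with between 867 and 880047 counts per library, and all 9 passed the filter on low counts.

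Small RNA was sequenced in 10 libraries. Cells came from wt mice, from mice deficient in the 3'RR (an enhancer cluster downstream of the constant genes of the immunoglobulin heavy chain) and from mice deficient in Eµ (the intronic enhancer of the same locus, a line named EµMAR-deficient in the study's methods). Per those methods the 3 genotypes shared one strain background, and mice were males and females of 8 to 12 weeks. Cells were cultured for 2 days in medium alone (non-stimulated, NS) or with lipopolysaccharide (LPS) at 5 µg per ml (the unit in the treatment label and the study's methods, while other label text has mg), which induces B-cells to divide. There were 2 libraries for each condition of wt and of 3'RR-deficient cells and 1 for each condition of Eµ-deficient cells. Each library pooled 2 mice, so that a replicate is a pool. The study's methods describe cells taken before and after stimulation, and if that held for small RNA the LPS comparison would also contain the culture itself. The deletions themselves were not checked in these counts. Library totals ran from 3482540 to 18144016 counts, of which 2225722 to 12377000 were microRNA counts.

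The let-7 microRNAs are among the oldest and most conserved in animals. A mature microRNA guides an Argonaute protein to messenger RNAs through its seed, the bases near the 5′ end, and lowers their translation and stability. Members that share a seed are taken to reach overlapping targets. In many tissues let-7 accumulates as cells mature, with the LIN28 RNA-binding proteins blocking its processing in immature cells, and classical let-7 targets include Ras, Hmga2 and Myc transcripts. Mature lymphocytes carry abundant let-7, and their activation alters the levels of many microRNAs.

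RefSeq (GRCm38.p6) gave a mature sequence for 9 of 9 members. All are shown because the results turn on how single members with the same seed behaved. Capitals mark the seed, bases 2 to 8 from the 5′ end, and the rest of each sequence is in lower case.
mmu-let-7a-5p: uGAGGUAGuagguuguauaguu
mmu-let-7b-5p: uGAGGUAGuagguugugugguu
mmu-let-7c-5p: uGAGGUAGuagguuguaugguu
mmu-let-7d-5p: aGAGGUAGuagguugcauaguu
mmu-let-7e-5p: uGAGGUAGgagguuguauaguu
mmu-let-7f-5p: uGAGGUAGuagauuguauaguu
mmu-let-7g-5p: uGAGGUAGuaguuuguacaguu
mmu-let-7i-5p: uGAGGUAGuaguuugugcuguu
mmu-miR-98-5p: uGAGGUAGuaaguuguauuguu

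All 9 were 22 bases long and had the same seed, and they differed from each other at 1 to 6 bases. Of the 36 pairs of members, 4 differed at a single base. With positions counted from 1 at the 5′ end and let-7a as the reference, let-7c differed by A19G, let-7e by U9G and let-7f by G12A. Let-7b carried A17G and A19G, and let-7d carried U1A and U16C. Further from let-7a, let-7g carried G12U and U18C, let-7i carried G12U, A17G, U18C and A19U, and miR-98 carried G11A and A19U. The share of G and C ran from 31.8% in let-7f and miR-98 to 45.5% in let-7b.

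The genes of the members lay in clusters and in host transcripts. On GRCm38.p6, whose positions equalled those of the count table for 1085 of the 1093 mature rows that RefSeq names, let-7d lay at chr13:48536078-48536099 on the minus strand, in an exon of a non-coding transcript that also holds let-7f-1 and let-7a-1. Let-7b lay at chr15:85707325-85707346 on the plus strand in an exon of the non-coding Lncppara transcript, beside let-7c-2. Let-7g was intronic in Wdr82 at chr9:106178846-106178867, plus strand. Let-7f-2 at chrX:151912353-151912374 and miR-98 at chrX:151913229-151913250 were both intronic in Huwe1, on its strand. Let-7e at chr17:17830366-17830387 was intronic in Spaca6, and let-7c-1 at chr16:77599672-77599693 in the non-coding Mir99ahg, both on the plus strand. The count table placed let-7i at chr10:122985698-122985719 on the minus strand, in an exon of a transcribed processed pseudogene, and let-7a at chr9:41536732-41536753 on the plus strand, in introns of non-coding transcripts. Because let-7a, let-7c and let-7f are each made from more than 1 gene and have 1 row each, their counts could not be divided between genes.

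The 9 members together took 24.7% and 31.2% of the microRNA counts in the wt NS libraries, 26.8% and 31.0% in the 3'RR-deficient NS libraries and 24.8% in the Eµ-deficient NS library. With LPS they took 7.94% and 21.0% in wt, 20.0% and 14.7% in 3'RR-deficient and 18.0% in Eµ-deficient cells. All 5 LPS libraries lay below all 5 NS libraries, and 95% Wilson intervals, which cover counting error only, were within 0.0608 percentage points of each value. The order depended on the scale. In CPM (counts per 1000000 microRNA counts) after trimmed mean of M-values (TMM) scaling, the sum was 342872 and 230891 CPM in wt NS, 340860 and 232960 in 3'RR-deficient NS and 208523 in Eµ-deficient NS cells. After LPS it was 68541 and 264072 CPM for wt, 190321 and 210008 CPM for 3'RR-deficient and 146558 CPM for Eµ-deficient cells, so that the conditions overlapped. In bulk RNA such as this, fewer cells that make a microRNA and less of it per cell cannot be told apart.

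Some libraries stood apart before any comparison. The second NS libraries of wt and of 3'RR-deficient cells, which were also the 2 smallest, shared a composition unlike the other 8 libraries, described below. In wt LPS replicate 1 all 9 members were lower than in wt LPS replicate 2, by 1.19 (let-7i) to 2.45 (let-7c) on the log2 scale with a median of 2.10, where the median of all microRNA rows tested was 0.06. Results are therefore given with and without these libraries. Of the marker lists for the sort, all 4 lymphocyte microRNAs (miR-150-5p, miR-142a-3p, miR-155-5p and miR-181a-5p) were counted, with a summed level of 47632.5 to 121240 CPM over the 10 libraries, while liver and muscle markers did not exceed 5.62 CPM.

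Let-7a, let-7f and let-7g were the 3 most counted members in 10 of 10 libraries, and together made 77.8% to 82.1% of the family in the 8 libraries other than the second NS ones. Over the 5 NS libraries let-7a ran from 55339.8 to 91099 CPM with a median of 64935, and over the 5 LPS libraries from 16689 to 72515 CPM. Let-7f ran from 49955 to 92712 CPM in NS and from 17929 to 76815 CPM in LPS libraries. Let-7g ran from 36392.5 to 98805 CPM in NS and from 19751.5 to 65664 CPM in LPS libraries. The ranges of these 3 overlapped within and between conditions, and their order changed from library to library. Let-7f stood at 101% to 107% of let-7a in the same 8 libraries. In those 8 libraries let-7i, let-7c and let-7d formed a middle group with let-7e below them. Let-7b was the lowest member in 8 libraries with miR-98 the lowest in the other 2. All members have the same length, but small RNA libraries ligate and amplify sequences unequally and no correction was made between members.

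**Figure D1:**
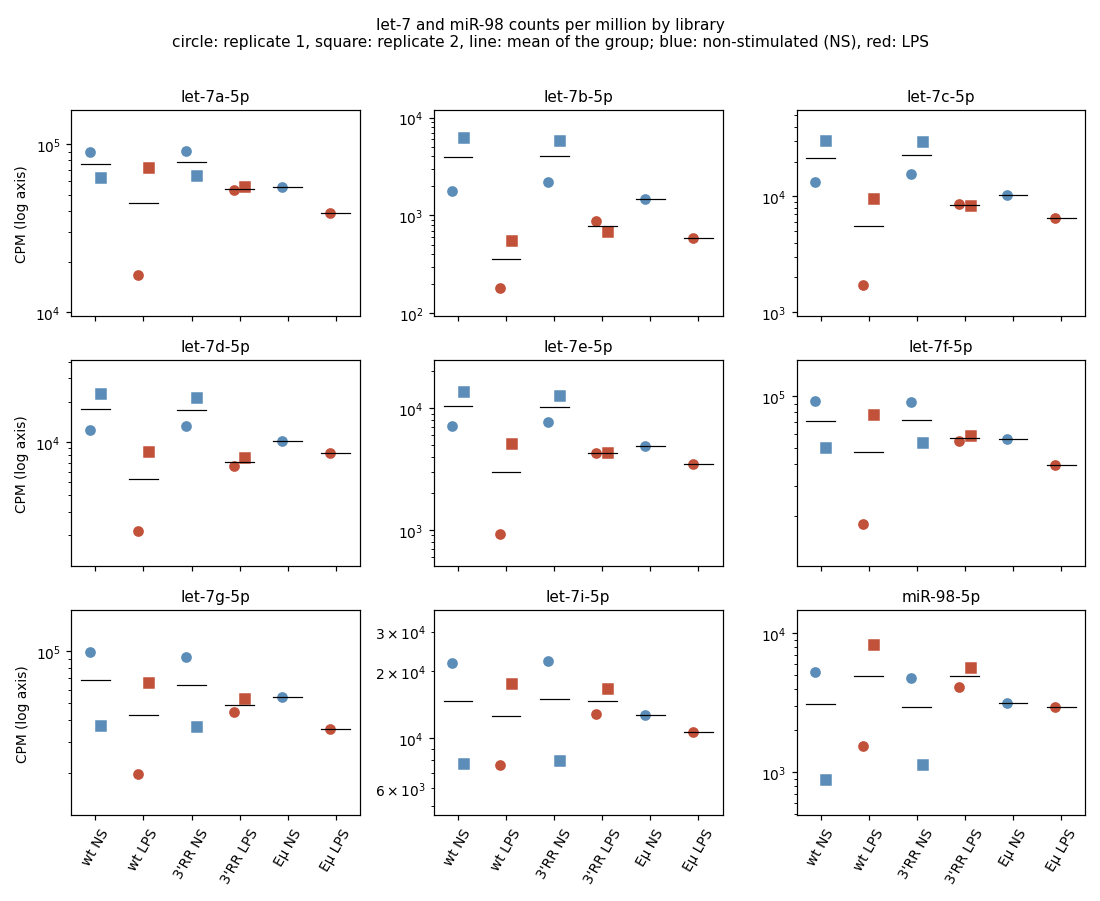
CPM (log axis) of each of the 9 microRNAs in 10 libraries, grouped by genotype and condition, with a circle for replicate 1, a square for replicate 2 and a line at the group's mean. The LPS points of let-7b, from 181 to 867 CPM, lie below all NS points, from 1464 to 6213 CPM, while the points of let-7a, f, g, i and miR-98 overlap between conditions.

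The first question of the design is what changed with LPS. Over wt and 3'RR-deficient cells together, with genotype in the model, let-7b and let-7d fell with LPS and the other 7 members did not pass the test. These 2 of 9 compare with 21.8% of the 720 microRNA rows tested that were called in either direction and 8.61% that were called lower (edgeR quasi-likelihood test, Benjamini-Hochberg adjusted p under 0.05). The median log2 fold change was −0.68 over the 9 members and 0.07 over all rows tested, and 8 of 9 members had values below 0. The members' median was −0.39 without wt LPS replicate 1 and −1.22 without wt LPS replicate 2.

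Let-7b, the member with the highest share of G and C, gave the largest difference of the 9. It stood at 1756 and 6213 CPM in wt NS, 2193 and 5821 in 3'RR-deficient NS and 1464 in Eµ-deficient NS cells. With LPS it stood at 181 and 543 CPM in wt, 867 and 677 in 3'RR-deficient and 585 in Eµ-deficient cells. Every LPS library was below every NS library, in each genotype and overall. LPS changed it by −2.96 on the log2 scale, with a standard error (SE) of 0.63 and an adjusted p of 0.0096, which over 13 other settings ranged from −3.71 to −1.66 with adjusted p from 2.24e-05 to 0.00985. Leaving out any 1 of the 8 libraries kept it called, with adjusted p from 0.00378 to 0.0383. With the first NS libraries alone the fold change was −1.98 (adjusted p = 0.00206).

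Let-7d was at 12247 and 22824 CPM in wt NS, 13149.7 and 21490.1 in 3'RR-deficient NS and 10241.5 in Eµ-deficient NS cells. Its LPS values were 2133 and 8405 CPM in wt, 6627 and 7609 in 3'RR-deficient and 8254 in Eµ-deficient cells. The conditions did not overlap. By edgeR it changed by −1.56 on the log2 scale (SE 0.50) with an adjusted p of 0.0483, so close to the threshold that the call was lost without any 1 of 6 libraries, that is all except the first NS libraries of wt and 3'RR-deficient cells, with log2 fold changes over the 8 omissions from −2.08 to −1.22 and adjusted p from 0.0239 to 0.155. With the first NS libraries alone it was −1.15 with an adjusted p of 0.0535, and it was called in 10 of 13 other settings (adjusted p from 0.002 to 0.0646).

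Let-7c, which differs from let-7b at 1 base, was at 13287 and 30046 CPM in wt NS, 15689 and 29558 in 3'RR-deficient NS and 10216 in Eµ-deficient NS cells. With LPS it was at 1729 and 9423 CPM in wt, 8578 and 8293 in 3'RR-deficient and 6466 in Eµ-deficient cells, again without overlap. Its log2 fold change of −1.74 (SE 0.57) had an adjusted p of 0.05001 by edgeR, just over the threshold, and it passed in 12 of 13 other settings with adjusted p from 0.00227 to 0.078. The setting in which it did not pass was the first NS libraries alone, with a log2 fold change of −1.17. With 1 library left out at a time it was called in 2 of 8 omissions, those of the first NS libraries of wt and 3'RR-deficient cells, with values from −2.37 to −1.35 over the 8 and adjusted p from 0.024 to 0.143. Let-7e gave −1.57 (SE 0.54, adjusted p = 0.0605), and was called in the same 2 of 8 omissions with values from −2.18 to −1.18 over the 8 and adjusted p from 0.0329 to 0.162, and in 9 of 13 other settings with adjusted p from 0.00478 to 0.0813. Its NS range over wt and 3'RR-deficient cells, 7099.6 to 13538.5 CPM, lay above the LPS range of 933 to 5028 CPM, but the Eµ-deficient NS library at 4909.7 CPM fell inside the latter. Counting such separation without a model, 4 of 9 members (let-7b, c, d and e) had all 4 LPS libraries below all 4 NS libraries of wt and 3'RR-deficient cells, against 12.9% of all rows tested. Over all 10 libraries 3 of 9 (let-7b, c and d) did, against 4.45%.

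The other 5 members did not pass here, though of 13 other settings let-7a and let-7f were each called in 3, let-7g in 4, and let-7i and miR-98 in 1 each, miR-98 with a value above 0. Their log2 fold changes were −0.68 for let-7a (SE 0.48, adjusted p = 0.343), −0.50 for let-7f (SE 0.50, adjusted p = 0.488) and −0.55 for let-7g (SE 0.52, adjusted p = 0.473). Let-7i gave −0.15 with a 95% confidence interval of −1.23 to 0.94. MiR-98 was the member with a value above 0, at 0.67 with an interval of −0.79 to 2.14. The lower ends of the intervals of let-7a, f and g were −1.74, −1.59 and −1.69, so that a fall of the size seen for let-7d lies inside them, and the data do not show that these members stayed level.

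Which member passed depended on the NS libraries used. Against the first NS libraries alone, where 26.3% of all rows were called, let-7b and let-7g fell, with let-7g at −1.16 (adjusted p = 0.044 by edgeR). There let-7i was at −0.79 and miR-98 at −0.15. Against the second NS libraries alone, where 38.6% of all rows were called, let-7b, c, d and e fell by 2.03 to 3.71 on the log2 scale. In the same fit miR-98 rose by 2.13 (adjusted p = 0.00759 by edgeR), and let-7g and let-7i were at 0.15 and 0.64. The signs of let-7g, let-7i and miR-98 thus turned between the NS libraries, and those of let-7a to let-7f did not. In these fits let-7b was below 0 and past the threshold with either library. Over 13 settings the adjusted p of let-7g ranged from 0.00522 to 0.777 and that of miR-98 from 0.00759 to 0.838.

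**Figure D2:**
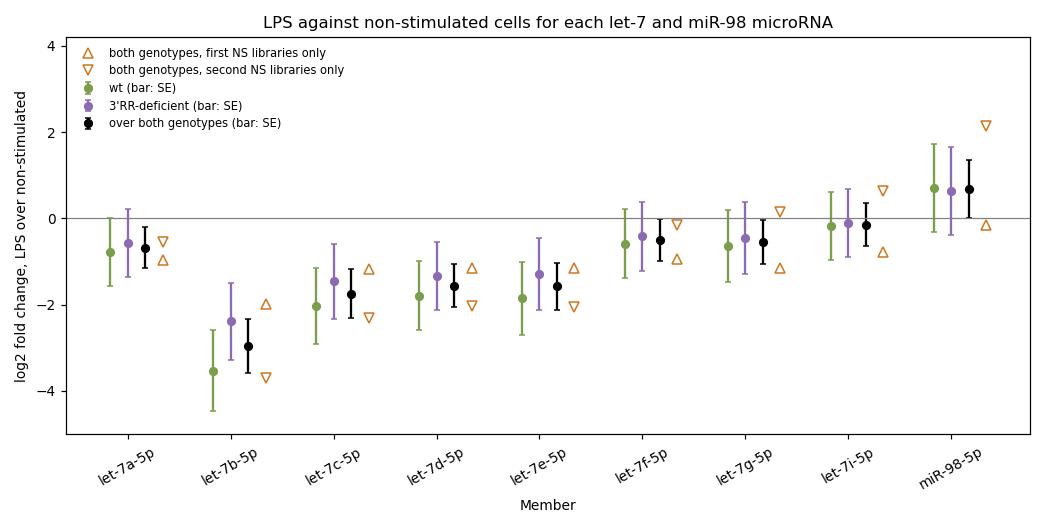
Log2 fold change of LPS over non-stimulated cells for each member (points, with bars of 1 SE) in wt cells, in 3'RR-deficient cells and over both, and over both with only the first or only the second NS library of each genotype (triangles). Let-7b lies lowest in every series, down to −3.71, while let-7g, let-7i and miR-98 lie on both sides of 0 depending on the NS library.

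Within 1 genotype no member passed with the test as described, while other settings called up to 4 members in wt and up to 1 in 3'RR-deficient cells. Both came with the second NS libraries alone, where 25.8% and 21.2% of all rows were called and the NS arm of each genotype was 1 library, taken to vary like the other groups. In wt cells 0 of 9 members were called by edgeR, where 0.694% of all rows were. Of the members 3 had an unadjusted p under 0.05, as did 156 of the 720 rows. DESeq2 called 1 member and 14.3% of all rows. In 3'RR-deficient cells 0 of 9 were called by edgeR, where 0.972% of all rows were. An unadjusted p under 0.05 was found for 1 member and for 139 of the 720 rows. DESeq2 called 0 members and 13.5% of all rows. Let-7b was lowest in both, with an adjusted p of 0.0833 at −3.53 (SE 0.94) in wt and of 0.19 at −2.39 (SE 0.90) in the 3'RR-deficient ones. The medians of the members were −0.78 and −0.57, beside 0.07 for all rows in both genotypes. They rested on single libraries: the wt median was −0.096 without wt LPS replicate 1, −2.22 without wt LPS replicate 2 and −1.18 without the second wt NS library, and the 3'RR-deficient median was −1.04 without the second 3'RR-deficient NS library. In Eµ-deficient cells, with 1 library per condition and so no test, the log2 ratio of LPS over NS ran from −1.32 for let-7b to −0.08 for miR-98, with a median of −0.50 beside 0.26 for all rows.

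Shares within the family do not depend on how libraries are scaled, and those of 3 of 9 members did not overlap between the conditions. MiR-98 and let-7i were higher with LPS, where 16.3% of the 988 rows tested over 10 libraries were higher in all 5 LPS libraries relative to the family total, so that 2 of 9 members is near that background. Let-7b was lower, as were 0.709% of rows. MiR-98 took 1.55% and 0.378% of the family in wt NS, 1.41% and 0.481% in 3'RR-deficient NS and 1.51% in Eµ-deficient NS libraries. With LPS it took 2.27% and 3.12% in wt, 2.18% and 2.69% in 3'RR-deficient and 2.02% in Eµ-deficient libraries. All 5 LPS libraries were above all 5 NS libraries.

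Let-7i took 6.34% and 3.33% of the family in wt NS, 6.52% and 3.41% in 3'RR-deficient NS and 6.12% in Eµ-deficient NS libraries. Its LPS shares were 11.1% and 6.60% in wt, 6.76% and 7.91% in 3'RR-deficient and 7.32% in Eµ-deficient libraries. The LPS libraries were all above the NS ones, though the highest NS value and the lowest LPS value were only 6.52% and 6.60%.

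Let-7b took 0.512% and 2.69% of the family in wt NS, 0.643% and 2.50% in 3'RR-deficient NS and 0.702% in Eµ-deficient NS libraries, and 0.264% and 0.206% in wt, 0.455% and 0.322% in 3'RR-deficient and 0.399% in Eµ-deficient LPS libraries. All 5 LPS shares were below all 5 NS shares. The shares of the other 6 members overlapped between conditions. Let-7a kept 26.2% to 27.9% of the family in NS and 24.3% to 27.9% in LPS libraries.

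**Figure D3:**
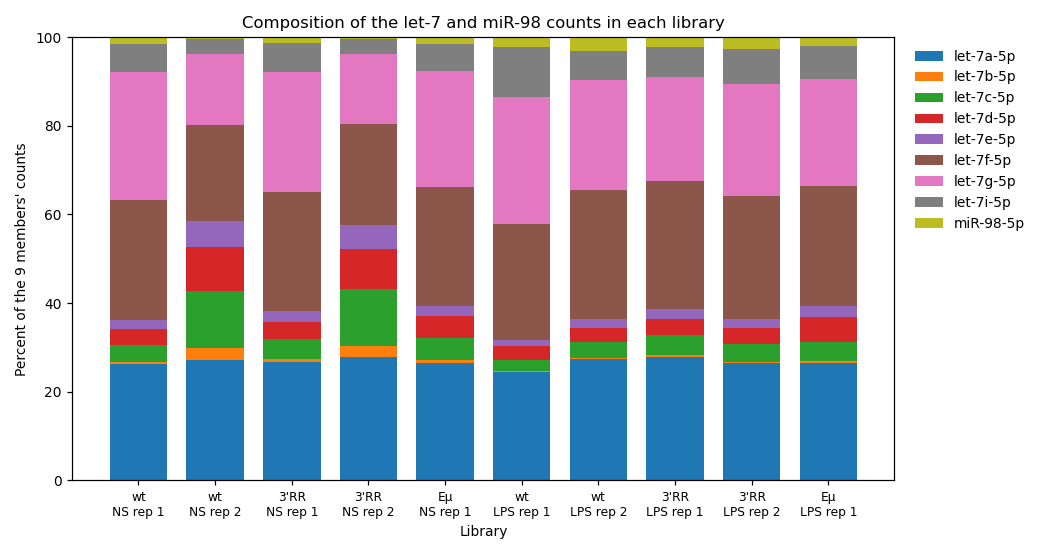
Percent of the 9 members' counts taken by each member in each library, NS libraries on the left and LPS libraries on the right. The second NS libraries of wt and 3'RR-deficient cells stand out, with let-7b, c, d and e together at 31.5% and 29.8%, against 7.26% to 12.9% in the other 8.

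The second NS libraries changed the balance in the same way in both genotypes. Let-7b, c, d and e together made 31.5% of the family there in wt and 29.8% in 3'RR-deficient cells, and 7.26% to 12.9% in the other 8 libraries. In wt cells the log2 ratio of the second over the first NS library was 1.82 for let-7b, 1.18 for let-7c, 0.90 for let-7d and 0.93 for let-7e, and in 3'RR-deficient cells 1.41, 0.91, 0.71 and 0.71 in the same order. Let-7a was lower at −0.53 in wt and −0.49 in 3'RR-deficient cells, and let-7f at −0.89 and −0.80. The largest falls were those of let-7g (−1.41 and −1.33), let-7i (−1.50 and −1.48) and miR-98 (−2.60 and −2.10). Members with the same seed and length thus moved in opposite directions between replicates.

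These ratios are set beside 2 features of the sequences, both looked at after the values were known. Over the 9 members the ratio followed the share of G and C with a Pearson r of 0.79 in wt and 0.76 in 3'RR-deficient cells, while in the LPS pairs r was −0.37 and −0.60. Over 497 mature microRNAs the slope was 1.06 log2 units per 10 percentage points of G and C in the wt NS pair and 0.84 in the 3'RR-deficient NS pair, and −0.26 and −0.20 in the LPS pairs. Let-7i did not follow the order, since its 40.9% equals that of let-7c, d and e. At positions 11 and 12 let-7a, b, c, d and e all carry GG, and the 4 members with another base there (let-7f, let-7g, let-7i and miR-98, by G12A, G12U, G12U and G11A) were the 4 lowest in both genotypes. The points share libraries and base composition, and the part of base composition, depth or handling in this contrast was not tested.

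**Figure D4:**
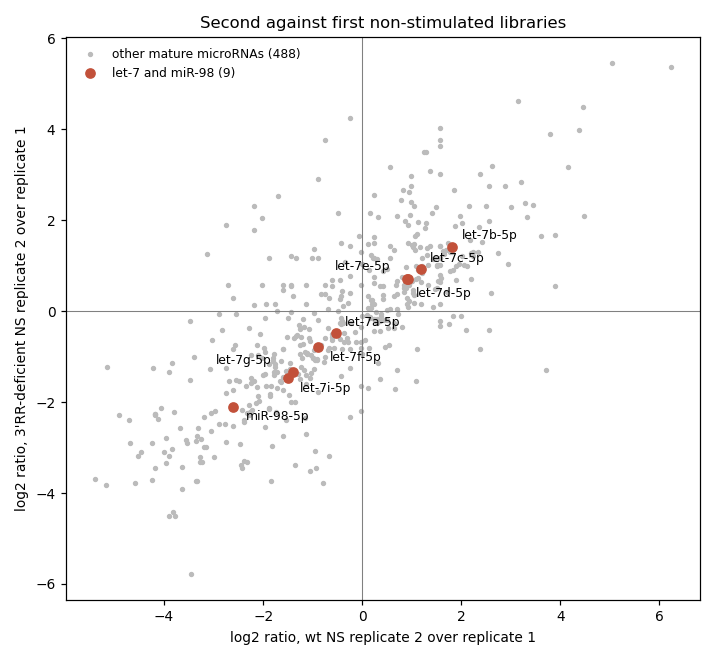
Log2 ratio of the second over the first NS library in wt (horizontal) and 3'RR-deficient cells (vertical) for 497 mature microRNAs, with the 9 members in red. The members lie along the diagonal from miR-98 at −2.60 and −2.10 to let-7b at 1.82 and 1.41, among the other microRNAs.

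Correcting each library for G and C content left let-7b lowest at −3.57 and brought 7 of 9 members past the threshold for LPS over both genotypes, let-7i and miR-98 being the exceptions at −0.66 and −0.32. In that fit 28.9% of the 501 rows tested were called. The count of members called, 2 as reported, ranged from 2 to 8 over the 13 other settings, in which 9.95% to 38.6% of all rows were called, and from 1 to 4 when 1 library was left out. The 8 came with the replicate number within culture condition as a block, where 25.6% of rows were called and miR-98 was the member not called. As coded, the LPS value of that fit is taken at replicate 1, the first LPS over the first NS libraries. It is not a mean over the replicates, and the same holds for this block with the G and C correction. Let-7b was called in 13 of those 13 settings.

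The next question is whether loss of the 3'RR changed let-7. In NS cells the 9 members differed from wt by 0.04 to 0.20 on the log2 scale, with 0 called by edgeR (0% of all rows), 0 at an unadjusted p under 0.05 and 0 by DESeq2. The intervals reached from −2.12 to 2.39. Single libraries of the same number were closer to each other than replicates were: the log2 ratio of 3'RR-deficient over wt was −0.14 to 0.32 for the first and −0.10 to 0.36 for the second NS libraries. All 9 values were above 0 with TMM scaling and below 0 with DESeq2 size factors.

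In LPS-stimulated cells the difference ran from 0.06 for miR-98 to 1.18 for let-7b, with a median of 0.36 and 0 of 9 called by edgeR (0% of all rows, 0 at an unadjusted p under 0.05, 0 by DESeq2). It rested on 1 library. The first 3'RR-deficient LPS library was above the first wt LPS library for all members, by 0.75 to 2.31, while the second was between −0.54 and 0.32 of the second wt LPS library. Without wt LPS replicate 1 the median was −0.14, and without replicate 2 it was 1.67. Over both conditions the members differed by 0.10 to 0.61, with 0 called by edgeR against 0.139% of all rows, 0 at an unadjusted p under 0.05 and 0 by DESeq2, and intervals between −1.36 and 1.91. The difference between the LPS responses of the 2 genotypes was −0.07 for miR-98 to 1.14 for let-7b (95% interval −1.55 to 3.83), again with 0 called by edgeR (0% of all rows, 0 at an unadjusted p under 0.05, 0 by DESeq2).

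For Eµ-deficient against wt cells over both conditions, in a fit of all 10 libraries, the members were between −0.40 (let-7c) and −0.0035 (let-7d), with a median of −0.30 beside −0.17 for all rows tested. None was called by edgeR, where 1.62% of all rows were, with 0 at an unadjusted p under 0.05 and 0 by DESeq2, and the intervals reached from −1.99 to 1.35. The direction followed the scale, since 9 members were below 0 with TMM scaling and 6 above 0 with total counts. It also followed the wt library: the Eµ-deficient LPS library was 0.49 to 1.95 above the first wt LPS library for all members and between −1.48 and 0.11 of the second.

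Other products of the let-7 genes were counted too. Of 11 rows for 3p arms, 9 were tested, and 2 fell with LPS over both genotypes, where 21.8% of all rows were called in either direction and 8.61% lower. These were let-7d-3p by 1.86 (adjusted p = 0.0366 by edgeR) and let-7b-3p by 1.69 (adjusted p = 0.0422). The median of the 9 was 0.83. Let-7d-3p, by far the most abundant 3p arm, was at 1119.9 and 5118 CPM in wt NS, 1611 and 3890.3 in 3'RR-deficient NS and 887 in Eµ-deficient NS cells. With LPS it was at 729 and 961 CPM in wt, 919 and 666 in 3'RR-deficient and 624 in Eµ-deficient cells. The LPS values of wt and 3'RR-deficient cells lay below their NS values, but not all below the Eµ-deficient NS value. Like the 5p arm of let-7d, it was higher in the second NS libraries. Let-7a-1-3p and let-7c-2-3p, the next most abundant, have the same sequence and held equal counts in 7 of 10 libraries, with at most 8 counts between them otherwise. Whether reads matching both were counted in each row or divided between them was not tested. Both ranged from 26 to 1515 counts, at 0.83 and 0.84 (adjusted p = 0.462 and 0.456). The 7 rows for let-7 hairpins held 0 to 177 counts.

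Reads that match more than 1 row also bear on the members. The let-7j row, whose sequence differs from let-7i by G8U in the seed and by 2 further bases at its end, held 52.9% to 75.0% as many counts as let-7i in the same library. How the counting treated reads that match such similar rows is not given in the sources used here, and the level of let-7i is uncertain to that extent. The other rows with the seed of the family, let-7k and miR-1961, held 474 and 24 counts over all 10 libraries.

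The microRNAs that share a primary transcript or cluster with let-7 genes were followed as well. MiR-99b-5p and miR-125a-5p lie 150 and 429 bases from let-7e, and miR-99a-5p lies 710 bases from let-7c-1. MiR-100-5p and miR-125b-5p lie 5273 and 45186 bases from the let-7a position of the table. Each neighbour was placed by the single position of its row, and whether its counts also come from genes elsewhere was not looked at. All 5 fell with LPS over both genotypes, where 21.8% of all rows were called in either direction and 8.61% lower. With either genotype taken alone 0 of 5 were called by edgeR, where 0.694% of all rows were called in wt and 0.972% in 3'RR-deficient cells. The values over both were log2 fold changes (adjusted p by edgeR) of −1.81 (0.031) for miR-99b-5p, −2.05 (0.0109) for miR-100-5p, −2.14 (0.00762) for miR-99a-5p, −3.24 (0.00261) for miR-125b-5p and −3.72 (0.00346) for miR-125a-5p. With 1 library left out 4 of them were called in 8 of 8 omissions, and miR-99b-5p in 3 of 8 with adjusted p from 0.0124 to 0.0937. Its call was lost without either wt LPS library, the second 3'RR-deficient LPS library or the second NS library of either genotype. Their summed level was far lower than that of let-7, from 272 to 1403 CPM in NS and from 45.7 to 846 CPM in LPS libraries.

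In Eµ-deficient cells the neighbours were compared with wt in the same fit as the members. Of the 5 neighbours 3 were called, against 1.62% of all rows. MiR-99a-5p was higher than in wt by 2.59 on the log2 scale (adjusted p = 0.0239 by edgeR), miR-100-5p by 3.24 (adjusted p = 0.0165) and miR-125a-5p by 3.41 (adjusted p = 0.0239), while miR-125b-5p at 2.45 (adjusted p = 0.0635) and miR-99b-5p at 1.37 (adjusted p = 0.287) did not pass. The 3 calls were lost, with 0 of 5 neighbours called by edgeR, without wt LPS replicate 1, wt LPS replicate 2 or the Eµ-deficient LPS library, and in the other 7 omissions 3 or 4 were called. For miR-99a-5p, miR-100-5p and miR-125a-5p in turn the values were 2.51, 3.21 and 3.32 without wt LPS replicate 1 (adjusted p from 0.119 to 0.14) and 2.88, 3.42 and 3.29 without wt LPS replicate 2 (adjusted p from 0.061 to 0.101), close to those with all libraries. Without the Eµ-deficient LPS library they were lower at 1.87, 2.27 and 2.22, and without the Eµ-deficient NS library higher at 3.26, 4.01 and 4.32. Each of these fits leaves 1 Eµ-deficient library, so the size depended on which of them was used. Whether neighbours and members differed from each other was not tested. In 3'RR-deficient cells the same 5 lay between −1.02 and 0.49 from wt, with no call.

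**Figure D5:**
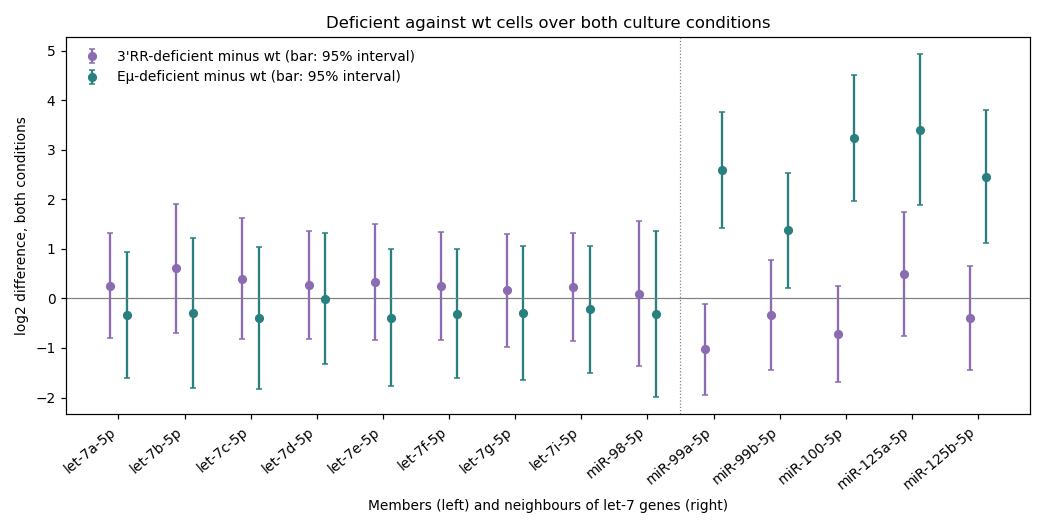
Log2 difference from wt over both conditions, with 95% confidence intervals, in 3'RR-deficient and Eµ-deficient cells for the 9 members (left) and the 5 neighbours of let-7 genes (right). The intervals of all members include 0, while in Eµ-deficient cells the 5 neighbours lie at 1.37 to 3.41.

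MicroRNAs of other cell types were compared in the same contrasts. With LPS over both genotypes 21.8% of all rows were called in either direction, and 8.61% of all rows were called lower. The myeloid miR-223-3p fell by 3.49 (adjusted p = 0.00261 by edgeR), 1 of 3 erythroid markers fell (miR-486a-5p, −4.25) and 2 of 3 stromal and endothelial markers fell (miR-143-3p, −3.18, and miR-145a-5p, −5.30). The summed erythroid level ran from 2499.9 to 7919 CPM in NS and from 138 to 3569.6 CPM in LPS libraries, the myeloid level from 463 to 4939 and from 76.2 to 496 CPM, and the stromal level from 191 to 1031 and from 67.2 to 841 CPM. In Eµ-deficient cells the erythroid markers had a median of 2.51, miR-223-3p was at 2.12 (adjusted p = 0.0635) and the 3 stromal markers were at 2.82, 3.50 and, for miR-126a-3p, −0.86 (adjusted p = 0.702), none called. No marker of these lists was at 0 in all libraries, and their part in the values of let-7 and its neighbours was not tested. Of the lymphocyte list miR-155-5p, a microRNA induced on B-cell activation, rose by 2.76, and miR-150-5p and miR-181a-5p fell by 2.45 and 2.31, while miR-142a-3p was at 0.92 (adjusted p = 0.538) and did not pass.

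Correlations between members across the 10 libraries ranged widely, with no grouping tested. Pearson r on log2 CPM was 0.998 for let-7c with let-7e, 0.958 for let-7b with let-7c, 0.976 for let-7a with let-7f, 0.950 for let-7f with let-7g, 0.914 for let-7g with let-7i and 0.897 for let-7i with miR-98. Let-7b and miR-98 gave −0.42. The mature microRNAs whose pattern was most like the summed level of the 9, of 147 with a mean of at least 100 CPM, were miR-340-3p (r = 0.87), miR-23b-3p (r = 0.77) and miR-26b-5p (r = 0.72). These correlations are descriptions over 10 libraries that share conditions, depth and composition.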

How the data were processed

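Per the labels, RNA of CD43- splenic B-cells was made into libraries with the NextFlex small RNA kit (17 PCR cycles, 75 nt reads). The submitters' processing notes name cutadapt 1.2.1, Bowtie2 and the mm10 build. How reads were assigned to rows is not given in the sources used here. The deposited unit is whole-number counts per small RNA feature, which the authors did not normalize. Samples were grouped by their labels.

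The 2015 microRNA rows were fitted with edgeR 4.0.16 in R 4.3.3 (filterByExpr, TMM scaling, quasi-likelihood test, Benjamini-Hochberg adjustment over all rows tested, threshold 0.05). The LPS and 3'RR comparisons used the 8 wt and 3'RR-deficient libraries and 720 rows, and the Eµ comparison all 10 libraries and 988 rows. Single-library ratios used a prior count of 2. P-values measure the spread between pools of 2 mice.

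The alternatives were DESeq2 1.42.0 and its size factors, total count scaling, no filter, mature rows alone, the replicate number as a block, a loess correction on G and C content, either NS library alone, and leaving out each library. Crossed replicate numbers, the sum with let-7j, and single-library omissions for the family sum and the neighbours were added after seeing the data. All 9 members, the 5 neighbours, 3p arms by counts with the 3 of highest mean CPM, hairpin rows and the 3 microRNAs most like the family sum were named by rule. The members and lists were chosen with earlier results of these data known. Sequences and positions came from RefSeq GRCm38.p6 and host transcripts from GENCODE M21. Figures were drawn with matplotlib.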

Additional observations from a re-analysis of the deposited data

How the results depend on the processing

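No member passed in any of the settings tried for the 3'RR and Eµ comparisons or for the difference of LPS responses. Their directions were not stable: recomputed over all settings, the sign turned in 58 of 153 member values for 3'RR-deficient against wt NS cells, in 10 of 153 for LPS, in 13 of 153 for both, in 26 of 153 for the difference of responses and in 48 of 171 for Eµ. Let-7b below 0 with LPS over both genotypes was called in every setting and omission listed here. The summed level of the 9, LPS over NS, had a log2 ratio of mean CPM of −0.79 in wt and −0.52 in 3'RR-deficient cells, and its 6 values under other scalings or with let-7j added moved by less than the spread between replicates. With 1 library left out, an alternative chosen after seeing the data, it ran from −2.07 to −0.12 in wt, the ends being those without wt LPS replicates 2 and 1, and from −0.77 to −0.22 in 3'RR-deficient cells, the high end without the first NS library. The causes of the changes below were not tested. At the lowest count of a member, 867, counting error is small beside the spread between libraries, which limits these comparisons.

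Rows called for LPS over both genotypes were 247 by DESeq2 (157 as reported) and 292 with the second NS libraries alone. Where 2 members were reported, 4 were called with total counts (23.6% of all rows), by DESeq2 (34.3%) and with mature rows alone (21.7%). With the GC correction 7 were called (28.9% of all rows) and with the second NS libraries alone 5 (38.6%). For LPS in wt cells, where 5 rows and 0 members were reported, 10 rows were called with total counts, 50 with no filter, 103 by DESeq2, 3 with mature rows alone, 49 with the GC correction, 79 with the first and 195 with the second NS library alone. Members called in wt were 1 with no filter, by DESeq2, with the GC correction and with the first NS library, and 4 with the second, where the lone NS library is assumed to vary like the other groups. For LPS in 3'RR-deficient cells, where 7 rows and 0 members were reported, 31 rows were called with no filter, 97 by DESeq2, 31 with the GC correction, 50 with the first and 160 with the second NS library alone, and the last called 1 member. DESeq2 called 1 row for 3'RR-deficient against wt NS cells, 2 for LPS, 2 for both and 57 for Eµ, where 0, 0, 1 and 16 were reported. The GC correction called 1 row for NS and 2 for both conditions. For Eµ 28 rows were called with total counts and 47 with no filter.

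The replicate numbers were checked for pairing. Across 720 rows, deviations of same-numbered libraries correlated at r = 0.73 between wt and 3'RR-deficient NS libraries. The r was 0.15 between the LPS libraries and −0.31 to −0.09 between NS and LPS libraries. The shift shared by the NS libraries could hide a pairing of pools. Whether the numbers pair the conditions thus cannot be told from these values. With the replicate block 27 rows (3.75%) and 1 member were called for LPS in wt, and 11 rows in 3'RR-deficient cells. Over both 4 members were called, with 21.7% of rows. The member in wt was let-7b at −3.43 (adjusted p = 0.0477 by edgeR). With the block within culture condition 99 rows (13.8%) and 2 members were called in wt and 90 rows in 3'RR-deficient cells. Over both 8 members were called, with 25.6% of rows. These LPS values are taken at replicate 1 of each condition, the first LPS over the first NS libraries. The same block gave 1, 2 and 7 rows for 3'RR-deficient against wt (NS, LPS, both) and 105 rows for Eµ. The members in wt were let-7b at −2.60 (adjusted p = 0.00749 by edgeR) and let-7d at −1.84 (adjusted p = 0.0404), and over both the calls added to let-7b, c, d and e were let-7a at −1.29 (adjusted p = 0.0174), let-7f at −1.25 (0.0194), let-7g at −1.43 (0.00522) and let-7i at −0.96 (0.0311). With this block and the GC correction together, the LPS values again being those of replicate 1, 75 rows (15%) and 3 members were called in wt. In 3'RR-deficient cells 55 rows were called. Over both 7 members were called, with 25% of rows. For 3'RR-deficient against wt 1, 3 and 10 rows were called, and 58 for Eµ. Crossed replicate numbers as a block, added after seeing the data, gave 87 rows (12.1%) and 1 member for wt and 83 rows for 3'RR-deficient cells. Over both they gave 4 members, with 30.8% of rows called.

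With all 8 libraries or with 1 NS library per genotype, signs for LPS turned for miR-98, let-7i and let-7g, and with 1 library left out also for let-7f in wt, as given below. For wt, 3'RR-deficient and both in turn, miR-98 was at −0.85, −0.62 and −0.72 with the block within culture condition. With that block and the GC correction together it was at −0.36, −0.45 and −0.42. Both sets of values are taken at replicate 1 of each condition. With the GC correction alone miR-98 was at −0.18, −0.46 and −0.32, and with the first NS libraries at −0.075, −0.23 and −0.15. Let-7i was at 0.52, 0.77 and 0.64 with the second NS libraries, and in 3'RR-deficient cells at 0.0076 with the replicate block and 0.13 with crossed numbers. Let-7g was at 0.31 in 3'RR-deficient cells and 0.15 over both with the second NS libraries.

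Leaving out 1 library at a time, the rows called for LPS ran from 71 to 163 over both genotypes, from 0 to 71 in wt and from 0 to 62 in 3'RR-deficient cells, and the members called from 1 to 4, 0 to 1 and 0 to 1. The count over both fell by over 1.5 times without each LPS library, to 75 and 71 for the wt LPS libraries and to 98 and 84 for the 3'RR-deficient LPS libraries. Over both genotypes let-7i ran from −0.47 to 0.057. In wt, let-7f ran from −1.997 to 0.086, let-7i from −0.91 to 0.34 and miR-98 from −0.90 to 2.10. In 3'RR-deficient cells let-7g ran from −1.11 to 0.17, let-7i from −0.80 to 0.62 and miR-98 from −0.19 to 1.86. The median of the members ran from −0.14 to 1.67 for 3'RR-deficient against wt LPS cells, the high end without wt LPS replicate 2, from −0.39 to 1.59 for the difference of responses and from −0.63 to 0.34 for Eµ. Rows called ran from 0 to 1 for 3'RR-deficient against wt over both conditions and from 1 to 33 for Eµ.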
